A study of Mus musculus with 18 samples.

Results

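The genes described here are 8 Wnt ligands and 2 genes of the Wnt secretory route, measured in mouse mammary tumours and normal mammary glands: Wnt4, Wnt5a, Wnt5b, Wnt6, Wnt7b, Wnt10a, Wnt10b, Wnt11, Porcn and Wls. Every array probe carrying one of these names was taken, older symbols included, since Wls stands in the files as 5031439A09Rik. That gave 13 probes for the 10 genes, out of 41174 probes for 28919 genes or unnamed transcripts. Wnt5b, Wnt6 and Wls have 2 probes each, and for these genes probe A is the one with the brighter signal and probe B the other. The 2 Wnt5b probes are annotated to the same transcript record, while the 2 probes of Wnt6 and the 2 of Wls are annotated to different records. The 2 probes of a gene were read in the same RNA samples and are not independent measurements.

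Wnt proteins are secreted, lipid-modified signals that act on neighbouring cells through Frizzled receptors. Porcn, an enzyme of the endoplasmic reticulum, attaches the lipid, and the carrier protein Wls then takes the Wnt to the cell surface. Some ligands act mainly by stabilising β-catenin, which switches on target genes such as Axin2, while others, Wnt5a and Wnt11 among them, act mainly through routes that do not need β-catenin. In the mammary gland Wnts guide the growth and branching of the ducts, and forced activity of Wnt10b in mice gives mammary tumours.

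All mice were females of the inbred FVB/N strain, and RNA came from the whole tissue, flash frozen. The KI group held 5 single tumours of ErbB2 knock-in mice, the NIC group 2 pools of equal amounts of 5 tumours each, and the normal group 2 whole mammary glands. The labels used here do not spell out NIC, and give no age, no parity, and no promoter or Cre line for either tumour group. The second gland is labelled FVBmg.18PI, an ending the labels do not explain. Each RNA was hybridised on 2 arrays of 2 colours with the dyes exchanged, against a commercial universal mouse reference RNA, and a level below is the mean over this dye pair of log2(sample/reference).

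A level of 0 therefore means as much signal as the reference gives, and levels of different probes are not set against each other. In bulk tissue, fewer cells of a type and less RNA per cell cannot be told apart. The KI arrays have a value table and a platform record of their own, while NIC and normal arrays share another table, so in any difference that involves KI tumours the tumour group, its table and its platform record cannot be told apart. Erbb2 read 2.04 to 4.22 in the 5 KI tumours, 1.82 and 1.68 in the NIC pools, and −0.06 and −0.07 in the normal glands, so it was higher in all 7 tumour samples than in both glands. On the KI arrays the member probes were well above background and unsaturated on all 10 arrays in the tumour channel. Signal on the other arrays was not used here.

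Few of the 13 probes passed the test in any comparison. Differences were tested with limma across all 41174 probes, with Benjamini-Hochberg adjustment, and a probe was called at an adjusted p under 0.05. In KI against normal, 3 of the 13 probes were called (23.1%), all higher, where 42.2% of all probes were called, 20.1% higher and 22.2% lower. In KI against NIC, 1 probe was called (7.69%), higher, where 6.99% of all probes were called, 3.02% higher and 3.97% lower. In NIC against normal, 1 probe was called (7.69%), higher, where 18.4% of all probes were called, 9.82% higher and 8.62% lower. At an unadjusted p under 0.05 the counts were 3 of the 13 probes in KI against normal, 6 in KI against NIC and 7 in NIC against normal, where 50.9%, 23.1% and 39.1% of all probes lay under it.

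KI and normal ranges did not overlap for 4 probes (30.8%), all higher in KI, where 54.7% of all probes did not overlap, 27.2% higher and 27.5% lower. KI and NIC ranges did not overlap for 6 probes (46.2%), all of them higher in KI: Wnt5a, both Wnt6 probes, Wnt10a, Wnt10b and Wnt11. Over all probes 31.9% did not overlap between KI and NIC, with 16.1% higher and 15.8% lower. NIC and normal ranges did not overlap for 11 probes (84.6%), with 4 higher and 7 lower, where 71.5% of all probes did not overlap, 33.8% higher and 37.7% lower. The median difference over the 13 probes was 0.17 in KI against normal, 0.29 in KI against NIC and −0.32 in NIC against normal, beside 0.01, 0.00 and −0.02 over all probes.

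**Figure D1:**
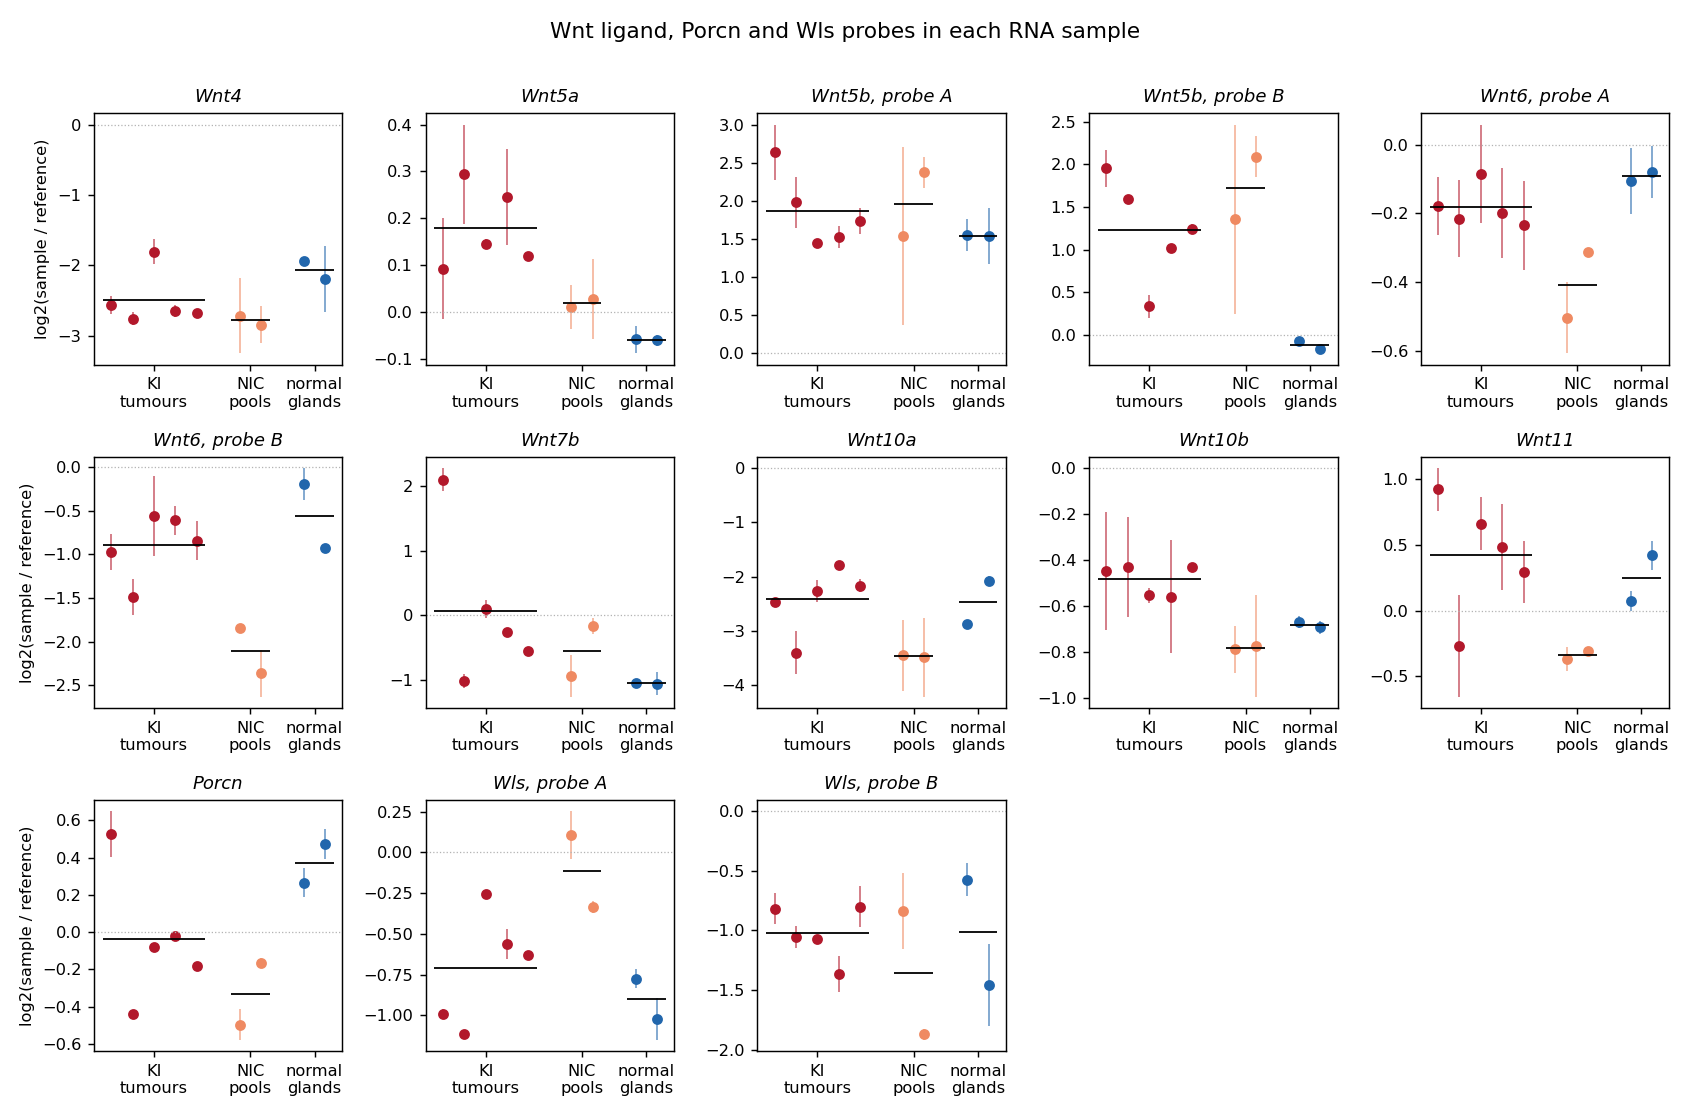
Level of each member probe, log2(sample/reference), in 5 KI tumours (red, KI 1 to 5 from left), 2 NIC pools (orange) and 2 normal glands (blue). Points are means of the dye pair, vertical lines join its 2 arrays, and horizontal lines are group means; each panel has its own vertical scale. Wnt7b stands at 2.10 in KI 1, and the 2 arrays of NIC pool 1 lie far apart for both Wnt5b probes.

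Of the ligands, Wnt4 acts downstream of progesterone in the branching of mammary ducts. It read −2.56, −2.76, −1.81, −2.65 and −2.67 in KI tumours 1 to 5, −2.72 and −2.84 in the NIC pools, and −1.94 and −2.19 in the normal glands. By these means of dye pairs, the tumours lay below both glands except for KI tumour 3, which lay above them. The 2 arrays of a pair differed by 1.07 and 0.53 in the NIC pools, 0.09 and 0.95 in the glands, and at most 0.36 in KI tumours. With the sample in Cy3, normal gland 2 read −2.67, below KI tumours 1, 3 and 5 (−2.44, −1.98 and −2.62). The NIC pools were lower than normal by a value that missed the threshold (difference −0.71 ± 0.14 SE, adjusted p = 0.0506). NIC against normal passed it in 3 of 11 alternatives, 1 of them with all arrays scaled to the same spread (adjusted p = 0.0083). With Cy3 or Cy5 alone it did not pass (0.159 and 0.118). KI tumours differed from normal by −0.42 ± 0.25 (adjusted p = 0.214), and without KI tumour 3 by −0.59 (adjusted p = 0.0054, over alternatives 0.0054 to 0.697). This value reversed to 0.46 when the KI scanner intensities were normalised anew, and became −1.50 when all arrays were scaled to the same spread. Leaving out the tumour that most opposes a difference must enlarge that difference, so a pass reached that way adds no support. Here that was KI tumour 3. The same holds below for KI tumour 2 at Wnt6 probe B, Wnt10a and Wnt11, and for KI tumour 1 at Porcn.

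Wnt6 and Wnt10a are neighbouring genes on chromosome 1, and both ligands, like Wnt10b, hold back fat cell formation in cultured cells. Wnt6 probe B (A_52_P415155) read −0.97, −1.49, −0.56, −0.61 and −0.84 in KI tumours, −1.84 and −2.36 in NIC pools, and −0.19 and −0.93 in normal glands. The NIC pools were the lowest samples. KI tumours were above NIC pools by 1.21 ± 0.30 (adjusted p = 0.0592), and NIC pools below normal by 1.54 (difference −1.54 ± 0.35, adjusted p = 0.0646), both just outside the threshold. NIC against normal at probe B passed the threshold in 5 of 10 alternatives and missed it in the other 5. It passed with Cy5 alone (adjusted p = 0.04) and with all 9 RNA samples in 1 fit (0.0147), and missed with Cy3 alone (0.12). KI against normal came to −0.34 ± 0.30 (adjusted p = 0.412). Without KI tumour 2, the lowest of the KI tumours, KI against NIC came to 1.36 (adjusted p = 0.029, over alternatives 0.0045 to 0.332). Wnt6 probe A (A_51_P482571) moved far less, with KI tumours at −0.24 to −0.09, NIC pools at −0.50 and −0.31, and normal glands at −0.11 and −0.08. It kept the order of probe B between KI and NIC (0.23 ± 0.07, adjusted p = 0.113) and between NIC and normal (−0.32 ± 0.12, adjusted p = 0.143). At probe A, NIC against normal passed in 3 of 12 alternatives, 1 of them with all 9 RNA samples in 1 fit (adjusted p = 0.0256).

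Wnt10a read −2.46, −3.40, −2.26, −1.78 and −2.16 in KI tumours, −3.45 and −3.48 in NIC pools, and −2.87 and −2.08 in normal glands. KI tumour 2 lay beside the NIC pools, and the other 4 KI tumours lay within the range of the normal glands or above it. KI differed from normal by 0.06 ± 0.41 (adjusted p = 0.92), a value without a settled direction, since it reversed in 5 of 18 alternatives and came to −1.11 (adjusted p = 0.0628, over alternatives 0.0628 to 0.997) with all arrays scaled to the same spread. KI exceeded NIC by 1.05 ± 0.41 (adjusted p = 0.178), and without KI tumour 2 by 1.30 (adjusted p = 0.0349, over alternatives 0.0204 to 0.501). NIC differed from normal by −0.99 ± 0.31 (adjusted p = 0.109), by −1.38 without normal gland 1 (adjusted p = 0.0368) and by −0.60 without normal gland 2 (adjusted p = 0.0763). With 1 dye alone it was −0.22 in Cy5 (adjusted p = 0.629) and −1.76 in Cy3 (adjusted p = 0.0715), and with all arrays scaled to the same spread −2.00 (adjusted p = 0.0142), the ends of the range over alternatives being 0.0142 and 0.629. The NIC means were near-identical while the dyes differed, since the arrays with the sample in Cy5 gave −2.80 and −2.75 and those with it in Cy3 gave −4.10 and −4.21.

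Wnt10b, which gives mammary tumours in mice when forced on, was the only member called between the tumour groups, and its difference was small. It read −0.45, −0.43, −0.55, −0.56 and −0.43 in KI tumours, −0.79 and −0.77 in NIC pools, and −0.67 and −0.69 in normal glands. No KI tumour reached down to the other 4 samples. The difference was 0.30 ± 0.06 in KI against NIC (adjusted p = 0.0345), 0.20 ± 0.06 in KI against normal (adjusted p = 0.0382) and −0.10 ± 0.09 in NIC against normal (adjusted p = 0.474). The spread between samples (SD 0.07 over KI tumours and 0.01 over NIC pools) was smaller than the gap between the dyes of 1 sample, which reached 0.51 in KI and 0.44 in NIC.

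The Wnt10b calls depended on the dye. On 7 of the 10 KI arrays the labelling protocol names the opposite dye from the label field. The label fields were followed. With the sample in Cy5 alone, KI exceeded NIC by 0.09 (adjusted p = 0.705) and normal by 0.02 (adjusted p = 0.929). With the sample in Cy3 alone the differences were 0.51 (adjusted p = 0.0468) and 0.38 (adjusted p = 0.0477). Over all alternatives the adjusted p ran from 0.0024 to 0.705 in KI against NIC and from 0.0021 to 0.929 in KI against normal, and KI against normal turned to −0.09 with all arrays scaled to the same spread. Leaving out KI tumour 1, 2 or 5 or either NIC pool ended the KI against NIC call (adjusted p 0.0529 to 0.172), and leaving out KI tumour 1, 2 or 5 or either gland ended the KI against normal call (0.0677 to 0.139). Without the 2 KI arrays of the smaller image extraction day the adjusted p was 0.129 in KI against NIC and 0.177 in KI against normal.

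Wnt7b, a ligand of the β-catenin route known from lung and blood vessel growth, varied most among the KI tumours. It read 2.10, −1.02, 0.10, −0.27 and −0.55 in KI tumours 1 to 5, −0.94 and −0.17 in NIC pools, and −1.05 and −1.06 in normal glands. KI tumour 1 stood far above every other sample on both of its arrays (2.28 and 1.92), while KI tumour 2 was at the level of the glands. All 7 tumour samples were above both glands, KI tumour 2 by less than 0.1. The SD over the KI tumours was 1.20, larger than for 98.8% of all probes, and the differences did not pass the test (1.12 ± 0.76 in KI against normal, adjusted p = 0.271; 0.63 ± 0.76 in KI against NIC, adjusted p = 0.691; 0.50 ± 0.30 in NIC against normal, adjusted p = 0.304). Single samples set much of their size. Without KI tumour 1, KI exceeded normal by 0.62 and NIC by 0.12, and KI exceeded NIC by 0.24 without NIC pool 1 and 1.01 without NIC pool 2. NIC exceeded normal by 0.88 without NIC pool 1 and 0.12 without NIC pool 2.

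Among the ligands that act mainly without β-catenin, Wnt5a restrains the outgrowth of mammary ducts. It read 0.09, 0.29, 0.15, 0.25 and 0.12 in KI tumours, 0.01 and 0.03 in NIC pools, and −0.06 and −0.06 in normal glands. All KI tumours were above the other samples, by little. KI exceeded normal by 0.24 ± 0.07 (adjusted p = 0.0295) and NIC by 0.16 ± 0.07 (adjusted p = 0.228), and NIC differed from normal by 0.08 ± 0.09 (adjusted p = 0.57). The size depended on how the KI arrays were processed, since with the log ratios of the scanner software KI exceeded normal by 0.88 and NIC by 0.81. The KI against normal call was lost with all arrays scaled to the same spread (adjusted p = 0.05002), without KI tumour 4 (adjusted p = 0.0593), without either gland (0.101 and 0.105), without the 2 arrays of the smaller image extraction day (0.0796) and with the sample in Cy3 alone (0.183, over alternatives 0.0143 to 0.183). This probe was the dimmest of the set, with a tumour signal of 1.67 times the median of the negative-control spots and a reference signal of 1.42 times it. Its tumour signal was above the 95th percentile of those spots on 10 of 10 KI arrays, and its reference signal on 9 of 10.

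Wnt5b, a close relative of Wnt5a, gave different values from its 2 probes. Probe B (A_52_P85805) read 1.95, 1.60, 0.33, 1.02 and 1.24 in KI tumours, 1.36 and 2.09 in NIC pools, and −0.07 and −0.17 in normal glands. All 7 tumour samples were above both glands, KI tumour 3 by the least. It was called in KI against normal (1.35 ± 0.41, adjusted p = 0.0336) and in NIC against normal (1.84 ± 0.29, adjusted p = 0.0362), a fold of 2.54 and 3.58. Probe A (A_51_P137991) read 2.64, 1.98, 1.45, 1.52 and 1.74 in KI tumours, 1.54 and 2.37 in NIC pools, and 1.55 and 1.54 in normal glands. Here the tumour groups overlapped the glands, and the differences were 0.32 ± 0.35 in KI against normal (adjusted p = 0.496) and 0.41 ± 0.33 in NIC against normal (adjusted p = 0.416).

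The 2 Wnt5b probes ordered the 5 KI tumours alike, with KI 1 highest, then KI 2, KI 5 and KI 4, and KI 3 lowest. In NIC pool 1 they also disagreed between dyes together, with 2.70 in Cy5 and 0.37 in Cy3 for probe A, and 2.47 and 0.25 for probe B. With the sample in Cy3 alone, probe B gave 1.46 in NIC against normal (adjusted p = 0.301, over alternatives 0.0162 to 0.301). That call was lost without any 1 of the 4 RNA samples (adjusted p 0.0919 to 0.108), and the KI against normal call without KI tumour 2, 4 or 5 or either gland (0.0516 to 0.14). The KI against normal call was also lost with the sample in Cy3 alone (adjusted p = 0.112) and with all arrays scaled to the same spread (0.0508), over alternatives 0.0088 to 0.14. KI tumours and NIC pools differed by −0.49 ± 0.41 at probe B (adjusted p = 0.54) and −0.09 ± 0.35 at probe A (adjusted p = 0.915).

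Both Wnt5b probes carry the same transcript accession in the files, which give no position within it. RefSeq lists 3 starts for mouse Wnt5b, and the 250 bases before each are shown here because the probes of this gene disagree. They are followed by the first of 2 Wnt11 starts, the only other member window that holds a TCF/LEF motif (CTTTGAT or, on the opposite strand, ATCAAAG, in capitals), the core of the sites bound by the partners of β-catenin. Sequences run 5′ to 3′ on the gene's strand and are from RefSeq's GRCm38.p6 assembly.
Wnt5b start 1, chr6:119544348-119544597, minus strand: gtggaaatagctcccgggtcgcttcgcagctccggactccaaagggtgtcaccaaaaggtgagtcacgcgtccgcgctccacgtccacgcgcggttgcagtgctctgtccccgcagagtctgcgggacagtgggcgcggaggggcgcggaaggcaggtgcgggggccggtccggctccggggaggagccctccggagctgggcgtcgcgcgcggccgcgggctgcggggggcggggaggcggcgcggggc
Wnt5b start 2, chr6:119467212-119467461, minus strand: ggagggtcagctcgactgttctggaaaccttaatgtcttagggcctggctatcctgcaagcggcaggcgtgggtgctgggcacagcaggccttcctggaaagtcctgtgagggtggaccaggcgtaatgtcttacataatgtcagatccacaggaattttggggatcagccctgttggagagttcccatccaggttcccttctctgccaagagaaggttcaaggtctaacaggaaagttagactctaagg
Wnt5b start 3, chr6:119449387-119449636, minus strand: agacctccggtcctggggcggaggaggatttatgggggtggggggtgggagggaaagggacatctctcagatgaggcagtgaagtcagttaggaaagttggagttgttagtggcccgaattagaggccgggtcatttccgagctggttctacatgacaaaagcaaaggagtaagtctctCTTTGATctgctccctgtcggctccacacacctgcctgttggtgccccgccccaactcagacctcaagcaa
Wnt11 start 1, chr7:98834862-98835111, plus strand: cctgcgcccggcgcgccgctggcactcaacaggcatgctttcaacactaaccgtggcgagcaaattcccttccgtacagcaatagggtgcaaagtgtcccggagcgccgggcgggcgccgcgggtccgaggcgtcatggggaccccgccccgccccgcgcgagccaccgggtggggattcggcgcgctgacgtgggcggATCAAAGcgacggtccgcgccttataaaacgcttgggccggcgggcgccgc
The match lies 64 bases before the third Wnt5b start and 44 bases before the first Wnt11 start. Windows were found for 6 of the 10 genes (Wls, Wnt4, Wnt5b, Wnt6, Wnt10b and Wnt11), 9 windows in all, and 2 of the 9 held the motif, where 3.21% of 32851 windows of the same length did. The match is a description of letters, and which start the tissue uses was not measured.

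Wnt11, which drives cell movements in the embryo and the branching of the kidney, read 0.92, −0.27, 0.66, 0.48 and 0.30 in KI tumours, −0.37 and −0.31 in NIC pools, and 0.07 and 0.42 in normal glands. The NIC pools were the lowest, with KI tumour 2 next to them. KI exceeded NIC by 0.76 ± 0.29 (adjusted p = 0.17), and without KI tumour 2 by 0.93 (adjusted p = 0.0357, over alternatives 0.0357 to 0.457). NIC differed from normal by −0.59 ± 0.16 (adjusted p = 0.0883) and KI from normal by 0.17 ± 0.29 (adjusted p = 0.67).

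Neither gene of the secretory route was called in the main fits, which averaged the dye pairs. When every array entered the fit separately, with a random block for each RNA, Porcn was called in NIC against normal (adjusted p = 0.0046), and Wls probe A in NIC against normal (0.0074) and in KI against NIC (0.0269). That fit also called both Wnt6 probes (probe A 0.0412, probe B 0.0033) and Wnt11 (0.0087) in NIC against normal, and Wnt6 probe B (0.0045) and Wnt11 (0.0463) in KI against NIC, and it ended the Wnt10b calls in KI against normal (0.221) and KI against NIC (0.132). The arrays of a dye pair repeat the same RNA, so that fit adds technical repeats and no RNA samples. Over all probes it called 15384 in NIC against normal, where 7594 were called with the pairs averaged. In KI against NIC it called 6073, where 2878 were called with the pairs averaged. Calls made by that fit alone are therefore not counted as results here. Both Wnt6 probes also passed in NIC against normal in other alternatives, given above, though not in the main fit. Porcn read 0.53, −0.44, −0.08, −0.02 and −0.18 in KI tumours, −0.50 and −0.17 in NIC pools, and 0.27 and 0.47 in normal glands. KI tumour 1 lay above the glands, and the other 6 tumour samples lay below them. The difference was −0.70 ± 0.17 in NIC against normal (adjusted p = 0.0735, over alternatives 0.0046 to 0.27), −0.41 ± 0.24 in KI against normal (adjusted p = 0.207) and 0.29 ± 0.24 in KI against NIC (adjusted p = 0.529). Without KI tumour 1, Porcn passed the test in KI against normal at −0.55 (adjusted p = 0.0309, over alternatives 0.0309 to 0.526).

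Wls probe A (A_51_P202033) read −0.99, −1.12, −0.25, −0.56 and −0.63 in KI tumours, 0.11 and −0.33 in NIC pools, and −0.77 and −1.02 in normal glands. Both NIC pools were above the glands, by 0.79 ± 0.21 (adjusted p = 0.0848, over alternatives 0.0074 to 0.676), and the KI tumours spanned the range between them (KI against NIC −0.60 ± 0.24, adjusted p = 0.196, over alternatives 0.0269 to 0.8; KI against normal 0.19 ± 0.24, adjusted p = 0.57). Probe B (A_52_P434924) did not follow probe A. It read −1.37 to −0.80 in KI tumours, −0.84 and −1.87 in NIC pools, and −0.57 and −1.46 in normal glands, and its differences were 0.33 ± 0.33 in KI against NIC (adjusted p = 0.62), −0.01 ± 0.33 in KI against normal (adjusted p = 0.99) and −0.34 ± 0.52 in NIC against normal (adjusted p = 0.672).

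**Figure D2:**
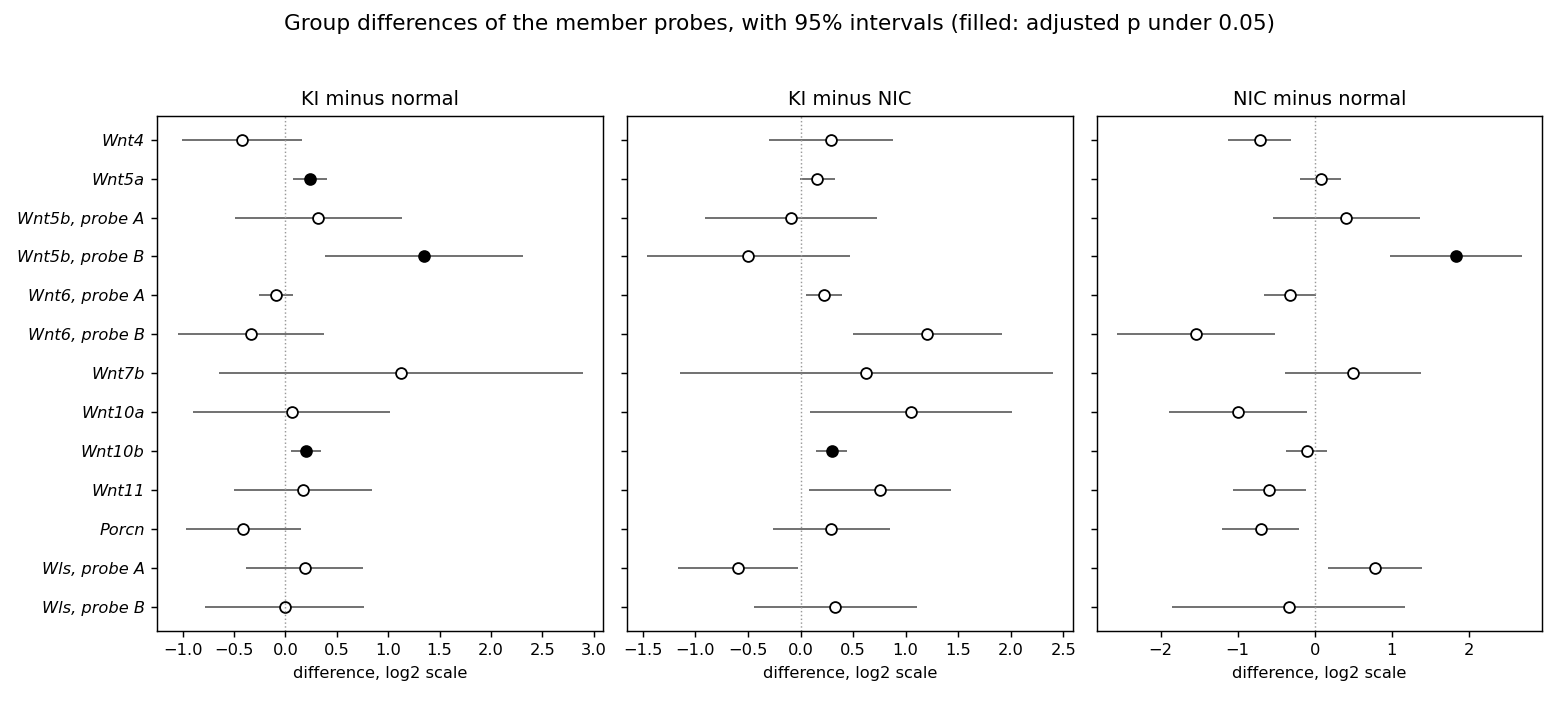
Difference of each member probe on the log2 scale in KI minus normal, KI minus NIC and NIC minus normal, from the limma fits, with 95% intervals; filled points have an adjusted p under 0.05 across all probes. Wnt5a, Wnt5b probe B and Wnt10b are filled in KI minus normal, Wnt10b in KI minus NIC, and Wnt5b probe B in NIC minus normal.

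Most member probes varied among the 5 single KI tumours. The SD over the 5 tumours had a median of 0.37 over the 13 probes, from 0.06 (Wnt6 probe A) to 1.20 (Wnt7b), and 10 of the 13 probes were above the median of 0.16 for all probes. The member probes and all probes were not matched for signal, and the part of signal in this spread was not tested. KI tumour 2 had the lowest value at 7 of the 13 probes (Wnt4, Wnt6 probe B, Wnt7b, Wnt10a, Wnt11, Porcn and Wls probe A), where it was the lowest tumour at 25.8% of all probes. KI tumour 1 had the highest value at 5 probes (both Wnt5b probes, Wnt7b, Wnt11 and Porcn), where it was the highest at 20.1% of all probes. KI tumour 3 held the highest Wnt4, Wnt6 (both probes) and Wls probe A.

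Axin2, a target and feedback inhibitor of β-catenin signalling, ran in another order, at −1.61, 1.37, −0.53, 2.52 and 2.11 in KI tumours 1 to 5. It read −3.05 and −2.97 in NIC pools and 1.53 and 1.81 in normal glands. KI tumour 1, with the highest Wnt7b, Wnt5b, Wnt11 and Porcn of the 5, had the lowest Axin2 of the 5. With 5 tumours this is given as values only.

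**Figure D3:**
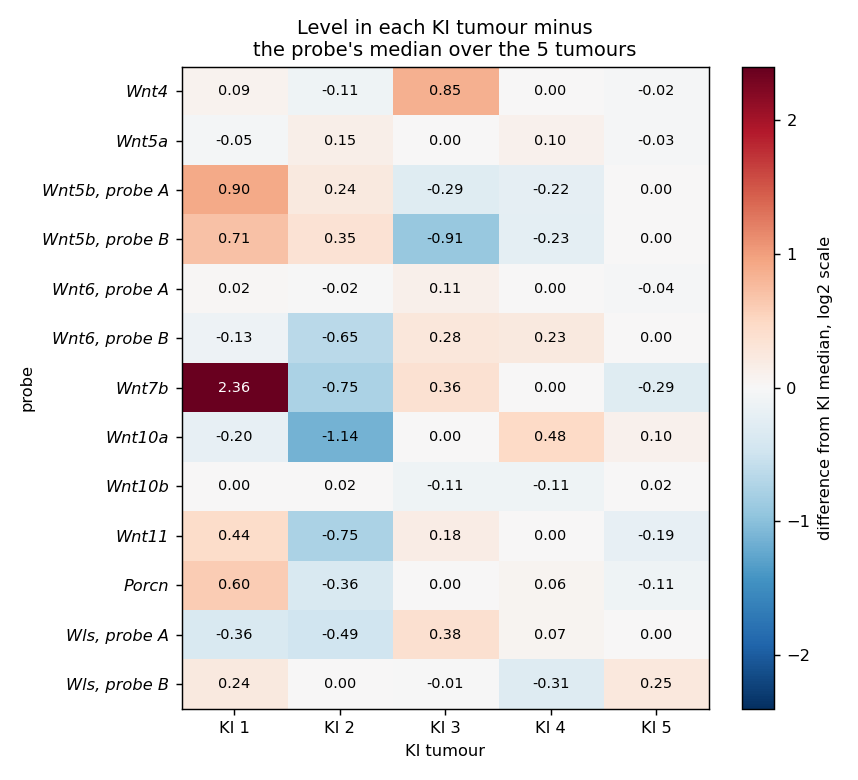
Level of each member probe in each of the 5 KI tumours minus that probe's median over the 5 tumours, on the log2 scale, with the value printed in each cell. KI 1 carries the Wnt7b value of 2.36 above the median, and KI 2 is below the median for Wnt6 probe B, Wnt7b, Wnt10a and Wnt11.

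Cell type markers moved with these groups and tumours, and their part in the Wnt values was not tested. Counts of markers are of called genes, by the brightest probe of each. By that probe 17.7% of all genes were higher and 24.8% lower in KI against normal. In NIC against normal 8.48% were higher and 9.52% lower, and in KI against NIC 3.1% and 3.42%. The 9 adipocyte markers had a median level of −0.05 to 0.43 in KI tumours, 0.36 and 0.00 in NIC pools and 3.83 and 3.29 in normal glands, and 7 of the 9 were lower in each tumour group than in normal. The 9 luminal markers ran at 2.33 to 2.86 in KI, 2.22 and 2.68 in NIC, and 0.46 and 0.37 in normal (7 higher in KI and 6 higher in NIC, against normal). The 9 basal markers summed to −0.08 to 13.3 in KI, −1.70 and −3.55 in NIC, and 13.7 and 14.5 in normal. Against normal, 2 of the 9 were higher and 4 lower in KI and 5 lower in NIC, with median differences of −1.15 and −2.03, and 1 was higher in KI against NIC. The median basal level was 0.19 and 0.16 in KI tumours 1 and 2 and 1.76 to 2.06 in the other 3. It was 0.66 and 0.27 in NIC pools and 1.47 and 1.74 in normal glands. By the median those other 3 KI tumours lay above both glands, while by the sum all KI tumours lay below them. The marker called in KI against NIC was the keratin Krt14, also higher in KI than in normal, at 2.41 to 2.99 in KI, −0.13 and −0.20 in NIC, and 0.68 and 1.46 in normal.

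Stromal markers followed a similar course. The 9 fibroblast markers summed to −9.72 to 7.51 in KI, −3.46 and −12.9 in NIC, and 13.5 and 14.4 in normal. KI tumour 2, with the lowest level at 7 member probes, had the lowest fibroblast median of the KI tumours (−1.33) and the highest skeletal muscle median (1.15, against −2.05 to −1.31 in the other 4). Endothelial markers had medians of 0.94 to 2.30 in KI, 1.42 and 0.82 in NIC, and 3.35 and 3.37 in normal, and leukocyte markers −1.21 to −0.57 in KI, −0.94 and −0.71 in NIC, and 0.48 and −0.05 in normal.

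**Figure D4:**
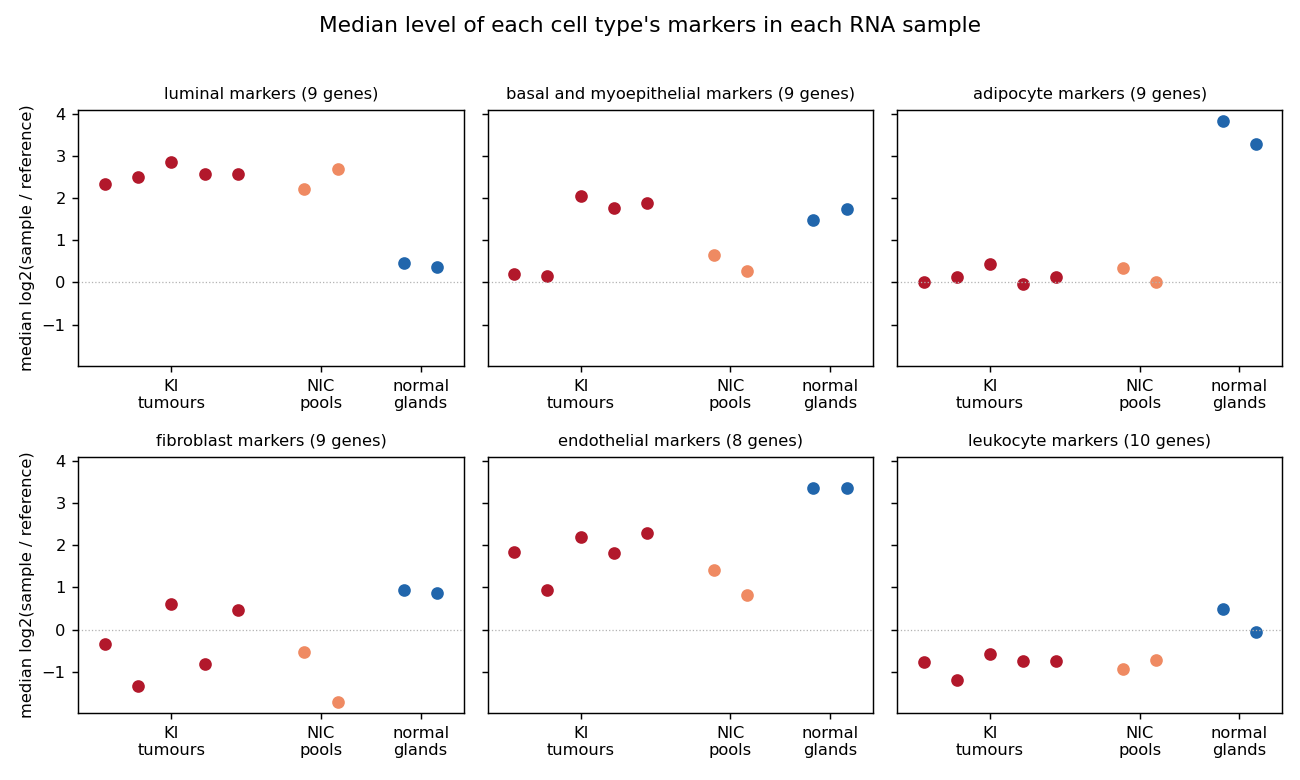
Median level, log2(sample/reference), of 6 lists of cell type markers in each of the 5 KI tumours (red), 2 NIC pools (orange) and 2 normal glands (blue). Adipocyte markers are at 3.29 and 3.83 in the glands and no higher than 0.43 in tumours, luminal markers are higher in tumours, and basal markers are low in KI 1, KI 2 and the NIC pools.

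The following counts use the brightest probe of each gene, by which 17.7% of all genes were higher and 24.8% lower in KI against normal, 3.1% higher and 3.42% lower in KI against NIC, and 8.48% higher and 9.52% lower in NIC against normal. Of the other 11 Wnt ligands on the array, none was called in KI against NIC or in NIC against normal, and 3 (27.3%) were lower in KI against normal, close to the share of all genes: Wnt2b (−0.76 ± 0.10, adjusted p = 0.00109), Wnt9b (−0.54 ± 0.10, adjusted p = 0.00415) and Wnt3a (−0.44 ± 0.08, adjusted p = 0.00501). All 3 lay between −0.21 and 0.17 in the KI tumours, near the reference. Wnt2, a ligand made by stromal cells, read 2.15, 0.23, 1.76, 0.31 and 0.68 in KI, 0.97 and 0.38 in NIC, and 2.08 and 3.88 in normal, and missed the threshold in KI against normal (−1.95 ± 0.68, adjusted p = 0.0513). By leading probe, the median difference of these 11 was −0.11 in KI against normal, beside 0.18 for the 10 genes described here and −0.03 for all genes.

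Of 13 other genes of Wnt trafficking and processing, none was called in NIC against normal, 4 were higher and 1 lower in KI against normal, and 1 was lower in KI against NIC. The 5 called in KI against normal are 38.5% of the list, where 42.5% of all genes were called. The cargo adaptors Tmed2 (0.999 ± 0.30, adjusted p = 0.0321) and Tmed10 (0.68 ± 0.15, adjusted p = 0.00975) and the Wnt deacylase Notum (0.54 ± 0.14, adjusted p = 0.0189) were higher in KI than in normal. Vps26a, a part of the retromer complex that returns Wls for reuse, was lower in KI than in NIC (−0.62 ± 0.10, adjusted p = 0.0151) and than in normal (−0.47 ± 0.10, adjusted p = 0.00883).

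Of 16 receptors and coreceptors, 5 were higher and 2 lower in KI against normal, 2 were lower in KI against NIC, and 5 were higher and 1 lower in NIC against normal. These are 43.8%, 12.5% and 37.5% of the list, where 42.5%, 6.51% and 18.0% of all genes were called. Lrp5, the coreceptor of the β-catenin route, was higher than normal in both tumour groups (2.57 ± 0.23 in KI and 3.68 ± 0.32 in NIC, adjusted p = 0.000333 and 0.0154). Lrp5 and the Frizzled Fzd8 were lower in KI than in NIC (−1.11 and −0.33). Ptk7, Fzd7 and Fzd6 were also higher in KI than in normal (2.24, 2.08 and 1.87), and Fzd4 lower (−1.96). In NIC against normal, Fzd9, Ptk7 and Fzd6 were higher (3.29, 2.43 and 1.74). These comparisons share the 2 normal glands.

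Of 8 R-spondins and receptors of theirs, Rspo1, a secreted enhancer of Wnt signals, was lower than normal in KI (−4.25 ± 0.27) and NIC (−4.22 ± 0.45), and Rspo3 in KI (−0.40). Of 13 secreted inhibitors, Sfrp4 (−1.85) and Sost (−0.30) were lower in KI against normal and Apcdd1, a membrane-bound inhibitor, in NIC against normal (−5.21). Of 14 target and feedback genes of β-catenin, 5 were higher in KI against normal, led by Myc (3.36), Nkd2 (2.83), Cd44 (2.29) and Sox9 (2.25). In NIC against normal 4 were higher and 2 lower, led by Axin2 (−4.68), Sox9 (2.98), Tcf7 (−2.77) and Ccnd1 (2.20), and Tcf7 alone was called in KI against NIC (2.91 ± 0.49, adjusted p = 0.0171). Of 11 genes of planar polarity, the β-catenin-independent route, 5 were higher and 1 lower in each tumour group against normal (54.5%, where 42.5% of all genes were called in KI and 18.0% in NIC), with Vangl2 first in both (2.33 in KI and 1.85 in NIC). In KI against NIC, Daam2 was higher (0.43) and Celsr2 and Daam1 lower (−0.64 and −0.40). Of 7 hormone response genes, Foxa1 was lower in KI than in normal (−3.91), Areg, Foxa1 and Esr1 lower in NIC than in normal (−4.55, −3.04 and −0.65), and Foxa1 and Prlr lower in KI than in NIC (−0.87 and −0.85).

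The genes closest in pattern to Wnt5a and Wnt10b, the members whose brightest probe was called, were found by the root mean square distance of centred levels over the 9 RNA samples. For Wnt5a these were Zbtb37 (0.0474), Isl1 (0.0531) and 4933427E13Rik (0.0548), with 288 of 19099 genes within 0.1. For Wnt10b they were Clec5a (0.0526), Cdk3 (0.0575) and Tspan32 (0.0581), with 144 genes within 0.1. Both members vary little (SD 0.13 and 0.14 over the 9 samples), so many genes with small changes lie this close.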

How the data were processed

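Messenger RNA was measured on 18 Agilent arrays of 9 RNA samples, with 2 colours, 2 arrays per RNA with the dyes exchanged. Per the labels' protocols, column-purified total RNA had 1 round of linear amplification before Cy3 or Cy5 was coupled. The deposited values are log2 ratios per spot in 2 tables, from steps not given in the sources used here, while RMA appears in the submitters' processing notes without a stated use. Per the file headers, the KI scanner files hold intensities and log10 ratios of Cy5 over Cy3 made by Agilent Feature Extraction A.7.5.1, with 0 or 1 flags for outlier, saturated and above-background spots.

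Each KI column of the deposited log2 table followed the same array's scanner intensities after normexp (offset 50) and loess at r = 0.982 to 0.988, turned to sample over reference. For the NIC and normal table, scale and direction were taken by analogy. Control spots had opposite sign in the 2 dye orientations, as in the KI table. The difference between dye orientations also correlated between the 2 tables, at r = 0.952 over all spots and 0.681 over non-control spots. Neither observation checks the scale. Column medians of both tables lay between −0.01 and 0.02. The spot layout of the KI scanner files was taken for all arrays. On 7 of the 10 KI arrays the labelling protocol and the label field name opposite dyes; the label fields were followed, and with them both arrays of each RNA run the same way. Neither table was normalised together with the other as far as known, so differences with KI cross tables.

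Control spots (2256) were left out, spots of a probe averaged, and probes named by accession, symbol or older symbol through RefSeq's GRCm38.p6 gene table. Dye pairs were averaged (r within pairs 0.824 to 0.942), so n counts RNA samples. The labels do not say whether samples came from separate animals, and p-values measure only the spread between these RNA samples, whose number limits the precision. A NIC sample is a pool of 5 tumours, while a KI sample is 1 tumour and a normal sample 1 gland. Spreads of these groups thus measure unlike units, and each fit took 1 spread per probe for all its groups. limma 3.58.1 (R 4.3.3, with the data.table package, version 1.17.8; lmFit, eBayes, two-sided) was fitted to the 4 RNA samples for NIC against normal and to all 9 for KI against normal and KI against NIC, with Benjamini-Hochberg adjustment over 41174 probes. The code was tested on simulated data. Members and gene lists were chosen with earlier results of these data known. All member genes and all their probes are named, then up to 4 called genes per list and comparison by size of difference of the brightest probe, and the 3 genes nearest in pattern to each member whose brightest probe was called. The comparison with negative-control spots was added after the data were seen. Alternatives were 1 dye alone, the RNA as a random block, 1 spread for all arrays, 1 or the mean probe per gene, a filter on dim probes, each RNA sample left out, other samples in the fit, KI values from the scanner files, and KI arrays of 1 image extraction day (2 of 10 arrays fell on the other day).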

Additional observations from a re-analysis of the deposited data

Results flagged for a closer look

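Wnt4 in KI tumour 3 lay apart from the other 4 KI tumours. Its level was −1.81, where the others ran from −2.76 to −2.56, and the gap to its neighbour was 0.795 of the whole range of the 5 tumours, above the 0.71 that marks a far value in a group of 5. Its 2 arrays differed by 0.36. By this measure 7.15% of all 41174 probes (2945) have a far KI tumour, so 1 of 13 member probes is close to what the array shows as a whole. Wnt7b in KI tumour 1 came to 0.642, below that mark.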

How the results depend on the processing

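The number of probes called moved with several choices. In NIC against normal 7594 probes were called, against 2905 with Cy3 alone, 15384 with the RNA as a random block, 5018 among probes above the median signal, 15060 with all 9 RNA samples in the fit, and 0 to 5051 with an RNA sample left out, 0 without either NIC pool. In KI against normal 17391 were called, 11250 with arrays scaled to 1 spread and 9588 above the median signal. In KI against NIC 2878 were called, 6073 with the random block, 1773 with 1 probe per gene, 1245 above the median signal, 6028 with KI values from scanner intensities, and 821 to 3157 with an RNA sample left out. Fewer probes were tested in the filtered and 1-probe settings. For the other changes the cause was not tested.

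Member probes called in NIC against normal were 1, against 0 with Cy3 alone, 3 with Cy5 alone, 6 with the random block, 4 with 1 spread, 2 with the mean probe, 3 with all 9 samples in the fit, and 0 to 1 with a sample left out. In KI against normal they were 3, against 1 with Cy3 alone, 1 with 1 spread, 0 above the median signal, 1 without the arrays of the smaller extraction day, and 0 to 4 with a sample left out. In KI against NIC they were 1, against 2 with Cy3 alone, 0 with Cy5 alone, 3 with the random block, 0 with 1 spread, 2 with the mean probe, 0 above the median signal, 5 with scanner intensities, 0 without the smaller day, and 0 to 3 with a sample left out. Above the median signal only 8 member probes were tested. Wnt5a, Wnt5b probe B and Wnt10b, which carried every main call, were too dim to be among them. Counts in that setting therefore say nothing about these calls. On the KI arrays their tumour signal was 1.67, 3.42 and 2.45 times the median of the negative-control spots. The median SD among KI tumours stayed within 0.28 to 0.43.

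Of 591 single-probe values under alternatives, 493 kept their direction and side of the threshold, 38 fell below it, 33 rose past it, and 27 reversed. The reversed values follow. In NIC against normal, Wnt5b probe A came to −0.0057 without NIC pool 2 (leaving out samples, −0.0057 to 0.83), and Wls probe B to 0.18 without NIC pool 2 and 0.10 without normal gland 1 (−0.86 to 0.18). In KI against normal, Wnt10a came to −0.19 with Cy3 alone, −1.11 with 1 spread, −0.10 without KI 4, −0.0026 without KI 5 and −0.33 without normal gland 1 (−0.33 to 0.45). Wls probe B came to 0.21 with Cy3 alone, 0.0023, 0.0059 and 0.08 without KI 2, 3 or 4, 0.44 without normal gland 1 (−0.45 to 0.44), 0.26 with scanner intensities and 0.11 with software ratios, and Wls probe A to −0.21 with 1 spread. Wnt10b came to −0.094 with 1 spread, Wnt6 probe B to 0.031 (−0.70 to 0.031) and Wnt11 to −0.0029 (−0.0029 to 0.35) without normal gland 1, and Wnt4 and Wnt5b probe A to 0.46 and −0.11 with scanner intensities. In KI against NIC, Wnt5b probe A came to 0.38 with Cy3 alone, 0.10 with 1 spread, 0.013 without KI 3 and 0.33 without NIC pool 2 (−0.51 to 0.33), Wnt4 to −0.074 with Cy5 alone, and Wls probe B to −0.19 without NIC pool 2 (−0.19 to 0.85). Where an arm was left with 1 sample, that sample was taken to vary like the others.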

Other observations

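Wnt10b and Wnt1 are neighbours on chromosome 15, as Wnt6 and Wnt10a are on chromosome 1. Wnt1 averaged 0.24 ± 0.13 in KI tumours (SD, n = 5), 0.30 ± 0.07 in NIC pools (SD, n = 2) and 0.49 ± 0.17 in normal glands (SD, n = 2), and was not called in any of the 3 comparisons.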
